A study of Mus musculus with 12 samples.

Results

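The array used for these hearts names many of its probes after cDNA or EST clones, that is after sequenced RNA copies that had no gene name when the probes were designed. Clone-named genes with a higher signal in both Nkx2-5 mutant groups than in control hearts were followed here, together with Mctp1, which has a gene name but little described function in the heart. These are 4930412O13Rik, 6330563C09Rik, AF251705, AI314604, AU015791 and Mctp1, 6 of the 34844 gene names on the array, and their members are the 8 of 55681 probes whose gene name equals one of them. They were chosen by their measured differences between mutant and control signal, the same that are given below, so those differences are a description without a test. Detection was part of the choice too, since a probe had to pass the filter on signal above background. The selection asked for a rise in both mutants but did not otherwise use the difference between them. It also did not use what the other probes of the same genes and loci showed, or how far each value depends on the normalization.

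Left ventricular RNA came from 12 mice aged 6 months, 4 per group and 1 array per mouse, taken from the ventricular wall with the apex and without the septum. All mice carried a floxed Nkx2-5 allele, and Nkx2-5 encodes a homeodomain transcription factor of heart muscle. In Nkx2-5ΔTrbE10 hearts (labelled Nkx2-5Δtrab, here TrbE10) the gene was deleted by the tamoxifen-inducible Cx40-creERT2 allele, active in trabecular myocardium, after injections to the pregnant female at E10.5 and E11.5. In Nkx2-5ΔTrbE14 hearts (labelled Nkx2-5Δcomp, here TrbE14) the injections were given at E13.5 and E14.5. Control mice were fl/fl littermates without the Cre allele according to the study's methods and were not injected according to the labels, and pups of treated females were delivered by caesarean section and fostered to CD1 females. Cre is made only where the Cx40 promoter is active, so other cells of the sampled wall keep Nkx2-5. In such tissue, more cells of a type and more RNA per cell cannot be told apart.

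Nkx2-5 signal checked the labels and was lower than in control hearts by -0.66 in TrbE10 (limma, adjusted p = 0.0459) and by -0.59 in TrbE14 (adjusted p = 0.106) on the log2 scale. The 10 ventricular cardiomyocyte markers measured all gave signal and 0 of them passed the threshold in either mutant, with median log2 differences of -0.07 and -0.01. The largest difference was that of Ryr2 in TrbE10, -0.41 (limma, adjusted p = 0.0918). Between 22885 and 26149 probes were well above background on each array. Control and TrbE14 arrays shared 1 slide and TrbE10 arrays were on the other, so slide and deletion at the earlier stage cannot be told apart, while the TrbE14 comparison lies within 1 slide. A Y-linked signal was present on 1 of 4 control, 2 of 4 TrbE10 and 3 of 4 TrbE14 arrays.

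The 6 genes are of different kinds. 4930412O13Rik and AU015791 are long non-coding RNAs in RefSeq, transcripts that are spliced and polyadenylated like messenger RNA but carry no recognised protein, and little is known of either in the heart. 6330563C09Rik and AI314604 were placed on the array from a cDNA of adult corpus striatum and from an EST, and neither had a match in the RefSeq table used here. AF251705 is named Cd300c2 in RefSeq (assembly GRCm38.p6, also CLM-4 or MAIR-II), a paired immunoglobulin-like receptor of the CD300 family on myeloid cells that signals through adaptor proteins with activating motifs. Mctp1 encodes a membrane protein with C2 domains, calcium-binding modules also found in synaptotagmins, ferlins and the extended synaptotagmins, and is best known from neurons.

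The probes were 60 bases long and each was printed once per array. All positions are those of the scanner files on mouse build mm9. 4930412O13Rik has probes at chr2:9808308-9808367 and chr2:9804423-9804482 (both plus strand, at positions 3952 and 863 of the transcript), 6330563C09Rik at chr13:118776158-118776217 (plus strand), and AU015791 at chr12:106753311-106753370 (plus strand). Their sequences are shown because these genes are known on the array by sequence rather than by function, and because the 4930412O13Rik probes gave opposite detection. Capitals mark ATTAAA, a variant of the poly(A) signal:
4930412O13Rik, first probe: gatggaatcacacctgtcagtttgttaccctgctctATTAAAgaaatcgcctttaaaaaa
4930412O13Rik, second probe: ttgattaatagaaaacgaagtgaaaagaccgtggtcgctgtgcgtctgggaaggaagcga
6330563C09Rik: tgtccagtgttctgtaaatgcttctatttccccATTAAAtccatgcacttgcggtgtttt
AU015791: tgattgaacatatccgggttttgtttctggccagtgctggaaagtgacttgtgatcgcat

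AATAAA or ATTAAA was found as printed in 2 of the 8 member probes, against 13.7% of all 55681 probes, and on the other strand in 1 of 8, against 6.14%. A match only says that these letters lie in the probe. The remaining probes lie at chr11:114858084-114858143 (AF251705, minus strand), chr8:48181864-48181923 (AI314604, plus strand), and chr13:77170944-77171003 and chr13:76851360-76851419 (Mctp1, plus strand, positions 4161 and 568 of the transcript). GC content of the member probes ran from 35.0 to 46.7%, with a median of 43.3% over all probes. No probe of another gene shared a stretch of 20 bases with any of them (0 for each of the 8).

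Detection separated the genes before any comparison of levels. The scanner software flags a spot as well above background when its signal exceeds the local background beyond the noise. Of the 8 probes, 6 passed the filter used here, flagged on at least 3 of 4 arrays in 1 or more groups, and these were 1 probe per gene. AF251705 was well above background on all 12 arrays and AI314604 on 11, the exception being control replicate 3. 4930412O13Rik, 6330563C09Rik, AU015791 and Mctp1 were well above background on 0 of 4 control arrays, on 4, 4, 3 and 4 TrbE10 arrays and on 4, 4, 4 and 3 TrbE14 arrays. For these 4 genes a control level has only an approximate upper bound, and a change is given as at least N-fold. This sets the mutant mean against the mean over control arrays of a floor. The floor is the higher of the probe's own signal and the array's lowest signal that was well above background. An unflagged spot can lie above that lowest signal, as AI314604 did on control replicate 3 (4.97 against 4.67). Folds written as at least are therefore approximate bounds and not strict minima. Probes like those of these 4 genes were rare, since 211 of 24593 filtered probes (0.858%) had no control array well above background. They passed the filter through the mutant arrays.

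**Figure D1:**
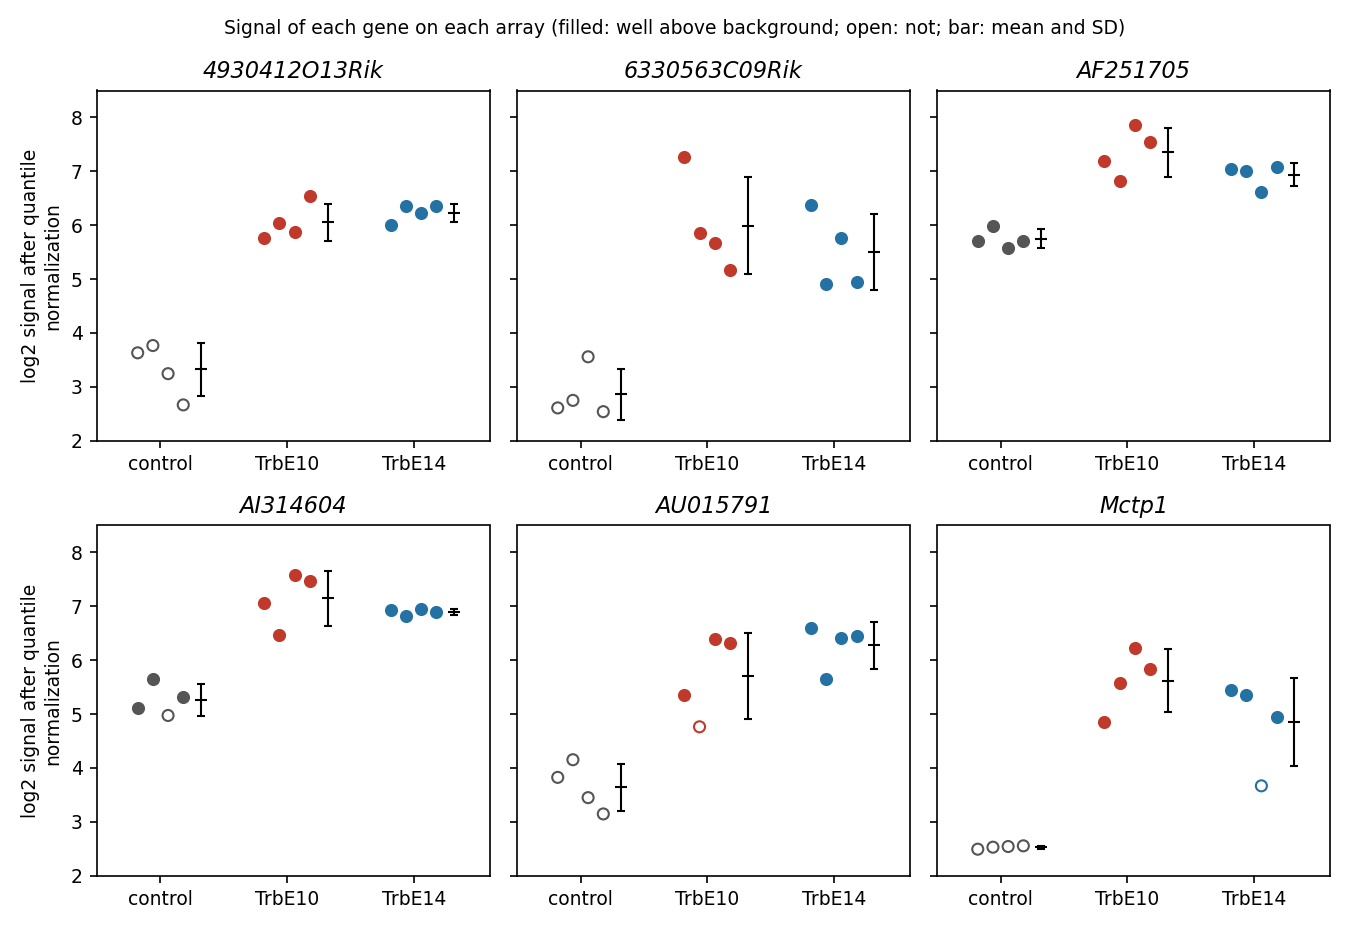
Log2 signal after quantile normalization (y axis) of the filtered probe of each of the 6 genes on each of the 12 arrays, by group, with filled points for spots well above background, open points for spots that were not, and bars for the mean and SD of 4 arrays. In every panel the 8 mutant arrays lie above the 4 control arrays; the control points are open in 4 panels, and Mctp1 controls lie between 2.49 and 2.55.

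For 4930412O13Rik, the log2 signals were 3.63, 3.77, 3.24 and 2.66 on control arrays 1 to 4, none well above background. TrbE10 arrays gave 5.77, 6.03, 5.87 and 6.55. TrbE14 arrays gave 6.00, 6.35, 6.22 and 6.36. The groups did not overlap, and TrbE14 arrays were the most alike, with an SD of 0.17 against 0.35 in TrbE10. The fitted difference from control was 2.73 (SE 0.24) in TrbE10 and 2.91 (SE 0.24) in TrbE14, or at least 3.06-fold and at least 3.46-fold. The second probe of this RNA, which lies nearer its start, was not well above background on any of the 12 arrays, and on each of them the scanner software had put a surrogate value in place of its signal. Its mean log2 signal was 2.46 in control, 2.48 in TrbE10 and 2.49 in TrbE14, so the higher signal was seen with 1 of the 2 probes.

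AU015791, the other long non-coding RNA, was cloned from adult aorta and vein. Control arrays gave log2 signals of 3.82, 4.15, 3.45 and 3.15, none well above background. TrbE10 arrays gave 5.35, 4.76, 6.40 and 6.32, of which replicate 2 was not well above background. TrbE14 arrays gave 6.60, 5.64, 6.40 and 6.45. All mutant arrays exceeded all control arrays, with TrbE10 replicate 2 closest to them and replicates 3 and 4 within the TrbE14 range. The differences from control were 2.06 (SE 0.37, at least 2.40-fold) in TrbE10 and 2.63 (SE 0.37, at least 3.56-fold) in TrbE14. AU015791 and 4930412O13Rik were the only genes of the 6 with the higher fitted mean in TrbE14.

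6330563C09Rik had the widest spread of the 6 genes among TrbE10 hearts. Control arrays gave log2 signals of 2.61, 2.75, 3.56 and 2.54, none well above background. TrbE10 arrays gave 7.26, 5.86, 5.67 and 5.17. TrbE14 arrays gave 6.37, 4.91, 5.77 and 4.95. The lowest mutant array still lay above the highest control array, but TrbE10 arrays spanned 2.09 and TrbE14 arrays 1.47 log2 units, and replicate 1 was the highest in both groups. The differences from control were 3.13 (SE 0.46, at least 2.93-fold) in TrbE10 and 2.64 (SE 0.46, at least 2.08-fold) in TrbE14. Without TrbE10 replicate 1 the first was 2.70, and without TrbE14 replicate 1 the second was 2.35.

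AI314604 was measurable in control hearts, so its folds are direct ratios. The log2 signals were 5.12, 5.65, 4.97 and 5.31 on control arrays. TrbE10 arrays gave 7.06, 6.47, 7.58 and 7.48. TrbE14 arrays gave 6.93, 6.83, 6.96 and 6.90, an SD of 0.06 against 0.50 in TrbE10. The groups did not overlap with control, and the TrbE14 values lay within the range of the TrbE10 values. The differences were 1.88 (SE 0.22, 3.69-fold) in TrbE10 and 1.64 (SE 0.22, 3.12-fold) in TrbE14.

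AF251705, the CD300 receptor, was the only gene well above background on every array. Control arrays gave log2 signals of 5.71, 5.99, 5.57 and 5.71. TrbE10 arrays gave 7.20, 6.82, 7.87 and 7.54. TrbE14 arrays gave 7.04, 7.01, 6.62 and 7.09. Replicate 3 was the highest of the TrbE10 arrays and the lowest of the TrbE14 arrays, and no mutant array reached down to the control arrays. The differences from control were 1.61 (SE 0.20, 3.05-fold) in TrbE10 and 1.19 (SE 0.20, 2.29-fold) in TrbE14.

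Mctp1 was at the bottom of the scale in every control heart, with log2 signals of 2.49, 2.53, 2.54 and 2.55, each from a surrogate value. TrbE10 arrays gave 4.85, 5.57, 6.22 and 5.84. TrbE14 arrays gave 5.44, 5.35, 3.67 and 4.94, of which replicate 3 was not well above background. The SD was 0.03 among these surrogate values, 0.58 in TrbE10 and 0.82 in TrbE14. The fitted differences were 3.09 (SE 0.37) in TrbE10 and 2.32 (SE 0.37) in TrbE14, but the bounds were much lower, at least 2.26-fold and at least 1.33-fold.

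The second Mctp1 probe, nearer the start of the transcript, was well above background on 0 control, 2 TrbE10 and 2 TrbE14 arrays and failed the filter. Its log2 signals were 2.75, 2.83, 2.54 and 3.84 in control, 4.11, 3.06, 5.99 and 6.24 in TrbE10, and 5.10, 4.48, 2.90 and 4.78 in TrbE14 hearts. On this probe the groups overlapped, since control replicate 4 exceeded TrbE10 replicate 2 and TrbE14 replicate 3. TrbE10 replicates 3 and 4 were the highest with both Mctp1 probes, and TrbE14 replicate 3 was the lowest mutant array with both. The mean was higher by 1.86 in TrbE10, at least 1.33-fold, and by 1.32 in TrbE14, where the bound was under 1 and no fold is given.

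All 6 genes passed the threshold (limma, adjusted over 24593 probes) as higher in each mutant, which is what they were chosen for. Over all filtered probes, 1.08% were called higher in TrbE10, 0.468% in TrbE14 and 0.407% in both. In each comparison the 4 mutant arrays of all 6 genes exceeded the 4 control arrays, as did those of 4.59% of filtered probes for TrbE10, 4.30% for TrbE14 and 2.02% for both. Of 4133 clone-named genes on the array, 1532 had a filtered probe and 5 were called higher in both mutants, which are the 5 described here. Counted by probes, 9 of 1795 clone-named filtered probes (0.501%) were called higher in TrbE10, 5 (0.279%) in TrbE14 and 5 (0.279%) in both. Just outside the selection were the 4 clone-named genes that passed in TrbE10 only, with log2 differences in TrbE10 and TrbE14 of 1.44 and 0.94 for A330021E22Rik, 1.43 and 1.04 for AA645497, 0.64 and 0.50 for C230098O21Rik, and 0.93 and 0.89 for C330007P06Rik. Among the genes inside the selection, AF251705 had the smallest differences, 1.61 and 1.19.

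The mutants were also compared directly for these genes. The selection did not use the size of the difference between the mutants, but it left out genes that rose in a single mutant. It therefore favours small differences, and the p-values below carry that limit. TrbE10 and TrbE14 arrays were on different slides, so time of deletion and slide cannot be told apart in this comparison. None of the 6 genes passed the threshold (0 of 6), and of all filtered probes 0 did by limma, with 1417 (5.76%) at an unadjusted p under 0.05. The exact two-sided permutation test used all 70 orders of the 8 mutant arrays, the smallest p it can give being 0.0286. The fitted mean was higher in TrbE10 for 4 of 6 genes.

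Mctp1 had the widest difference, 0.77 higher in TrbE10 (95% interval -0.05 to 1.59; limma adjusted p = 0.886; exact p = 0.171). AF251705 was higher in TrbE10 by 0.42 (-0.03 to 0.86; adjusted p = 0.886; exact p = 0.200), and AI314604 by 0.24 (-0.24 to 0.73; adjusted p = 0.949; exact p = 0.314). 6330563C09Rik was higher by 0.49 (-0.51 to 1.49; adjusted p = 0.952; exact p = 0.429). AU015791 differed by -0.57 (-1.38 to 0.25; adjusted p = 0.939; exact p = 0.171) and 4930412O13Rik by -0.18 (-0.70 to 0.34; adjusted p = 0.964; exact p = 0.400). Every interval held 0, and those of 6330563C09Rik, AU015791 and Mctp1 also held differences of over 1 log2 unit, so this number of arrays cannot show that the mutants were alike for them.

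The size of the differences depended on how low signals were treated. The authors' table of normalized log2 values holds the 6 filtered probes and not the second probes of 4930412O13Rik and Mctp1. Its lowest value is 5.04. Between 3.10 and 6.19% of its spots per array had a scanner signal under 30, and these lay at medians of 5.07 on every array, with Spearman correlations between scanner signal and table value of only -0.08 to 0.31. Above a signal of 30 the same correlation was at least 0.9997. Below that signal the table hardly keeps the order of the spots, and the processing step behind its flat low end is not given in the sources used here.

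**Figure D2:**
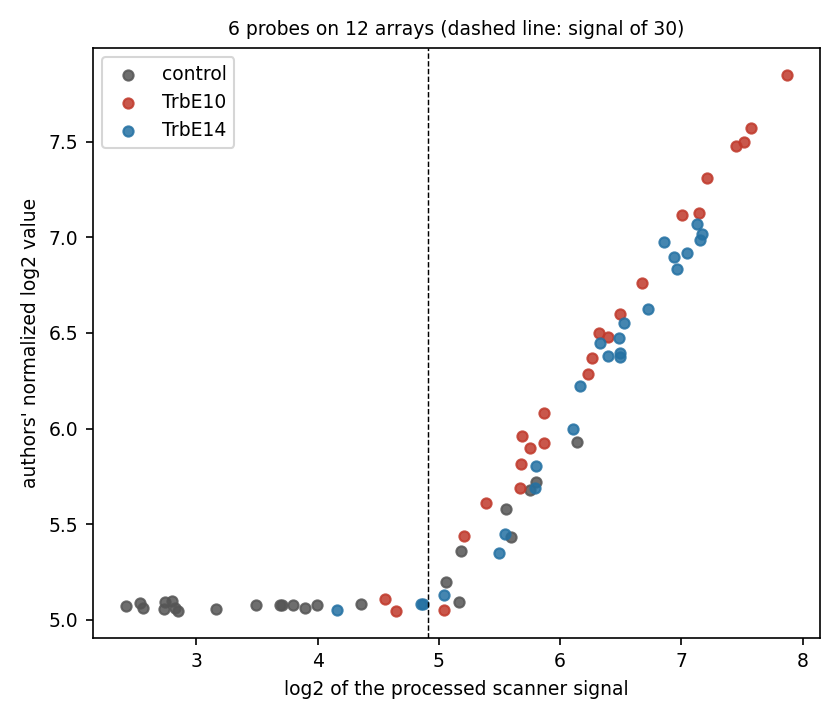
Authors' normalized log2 value (y axis) against the log2 of the processed scanner signal (x axis) for the 6 filtered probes on 12 arrays, coloured by group, with a dashed line at a signal of 30. Left of the line the points lie flat near 5.07 whatever the scanner signal was, and further right the value rises with the signal.

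In the authors' table the control values of the 4 genes that were not well above background in control hearts became nearly equal. 4930412O13Rik controls lay between 5.06 and 5.08, those of 6330563C09Rik between 5.05 and 5.09, those of AU015791 between 5.06 and 5.08, and those of Mctp1 between 5.06 and 5.10. Some mutant values lay there too. For 6330563C09Rik, TrbE10 replicate 4 was at 5.05, below 3 of the 4 controls, and TrbE14 arrays gave 6.40, 5.13, 5.81 and 5.08. For Mctp1, TrbE10 arrays gave 5.05, 5.61, 6.28 and 5.90 and TrbE14 arrays gave 5.45, 5.35, 5.05 and 5.08, so that 1 and 2 mutant arrays lay within or below the control range. The separation of mutant from control seen in the scanner signals was therefore not present in the table for 6330563C09Rik and Mctp1.

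The log2 difference of Mctp1 was 0.63 in TrbE10 and 0.15 in TrbE14 with the authors' values, compared with 3.09 and 2.32 from the scanner signals. It was 0.94 and 0.54 for 6330563C09Rik, 0.78 and 1.24 for AU015791, and 1.03 and 1.17 for 4930412O13Rik. AF251705 and AI314604 hardly moved, with 1.65 and 1.25 for AF251705 and 1.82 and 1.56 for AI314604. With these values 6 of the 12 differences (6 genes in 2 mutants) passed the threshold, both of 4930412O13Rik, AF251705 and AI314604, and all 12 were positive.

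Raising every signal to the lowest value that was well above background on its array gave differences of 1.61 and 1.79 for 4930412O13Rik, 1.55 and 1.06 for 6330563C09Rik, 1.27 and 1.83 for AU015791 and 1.18 and 0.44 for Mctp1. Normexp background correction with an offset of 50, which compresses dim spots, reduced all 6 genes, to between 0.65 (AU015791) and 0.94 (AI314604) in TrbE10 and between 0.45 (Mctp1) and 0.86 (AI314604) in TrbE14. Scaling to the 75th percentile without quantile normalization left all 12 differences within 1 SD of the values above, and all 12 passed. The direction from control was the same in all 12 differences under every setting tried, while the sizes for 4930412O13Rik, 6330563C09Rik, AU015791 and Mctp1 changed by more than the spread between replicates with the authors' values, with normexp and with signals raised to the detection limit.

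**Figure D3:**
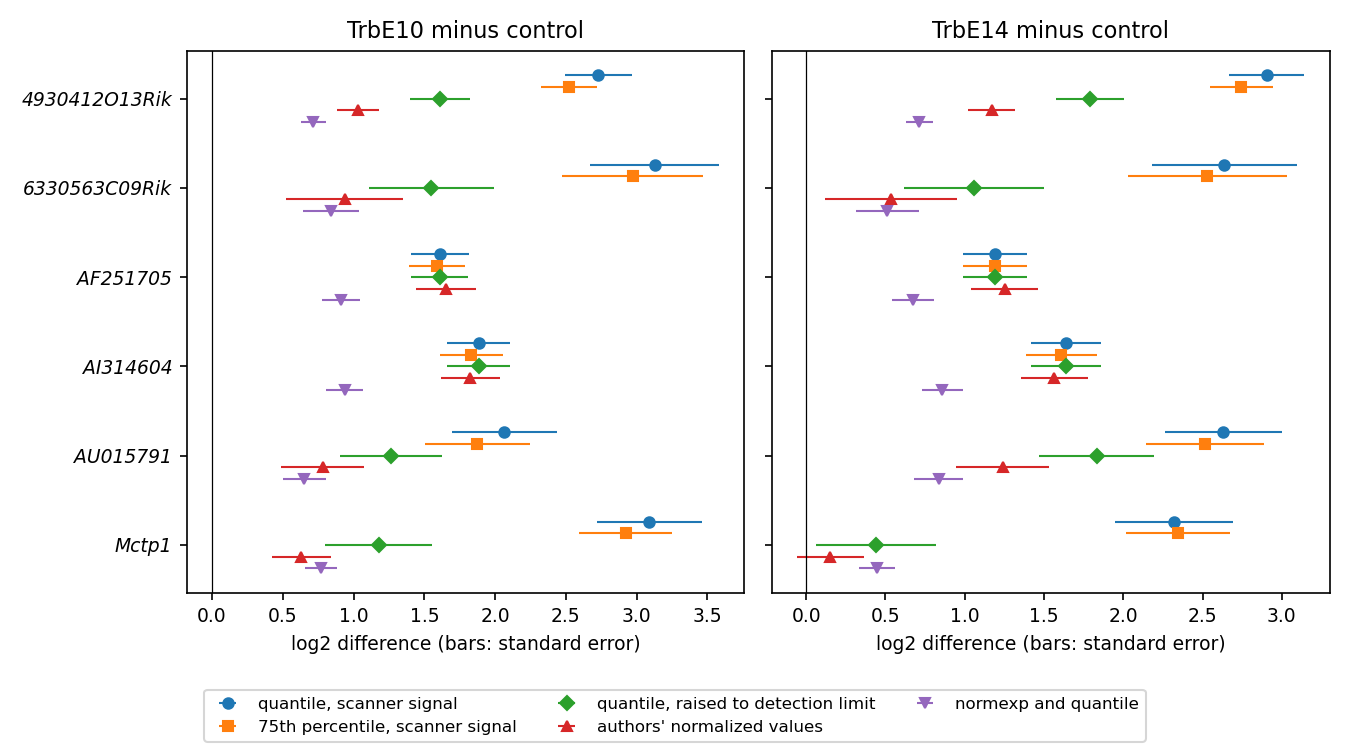
Log2 difference from control (x axis, bars for the standard error) of the 6 genes in TrbE10 (left) and TrbE14 (right) under 5 treatments of the signal. AF251705 and AI314604 move by more than their replicate SD only with normexp, while the other genes range from 2.06 to 3.13 in TrbE10 with quantile normalization of the scanner signal down to 0.63 for Mctp1 with the authors' values.

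Beyond the group means, the genes could be compared by how their arrays deviated within groups. AF251705, AI314604 and AU015791 deviated together over the 12 arrays, with a Pearson r of 0.84 between AF251705 and AI314604, 0.82 between AI314604 and AU015791 and 0.74 between AF251705 and AU015791. All 3 were lowest in replicate 2 and highest in replicate 3 of the TrbE10 group. Mctp1 went with AF251705 (r = 0.62) and little with AI314604 (0.19) or AU015791 (0.20). 6330563C09Rik had a negative r with each of the other 5 genes, from -0.44 with 4930412O13Rik to -0.14 with AU015791. Of the 15 pairs 10 were positive, with a median of 0.20. These values are a description over 12 arrays that share the normalization, and 4 of the genes had no measured level in control hearts. Over the 8 mutant arrays alone the r between AF251705 and AI314604 was 0.84, that between AI314604 and AU015791 was 0.90 and that between 4930412O13Rik and 6330563C09Rik was -0.80.

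**Figure D4:**
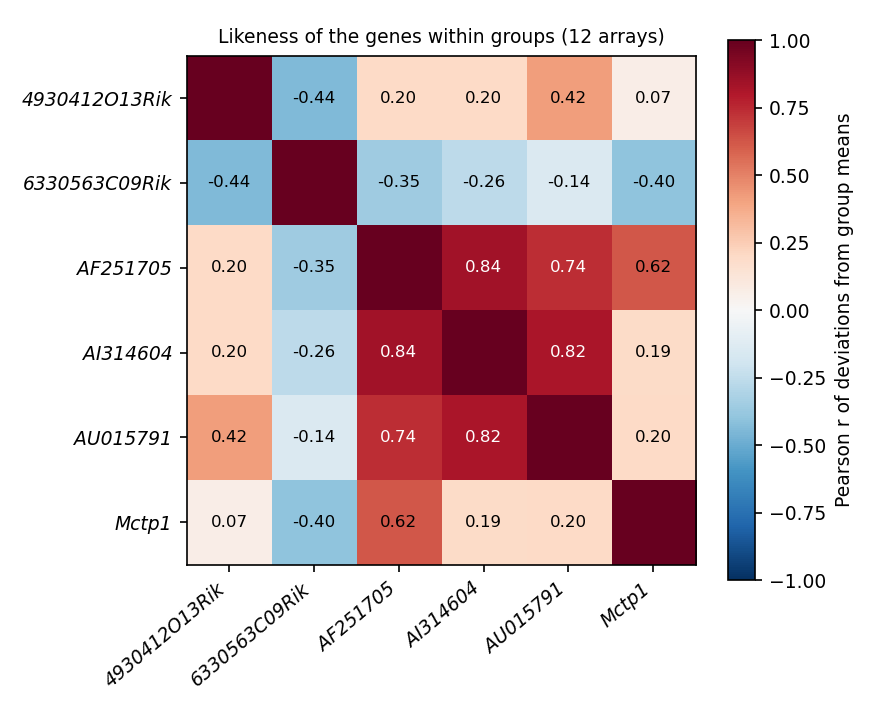
Pearson r between genes (colour and printed value) of the deviations of log2 signal from the group means over 12 arrays. AF251705, AI314604 and AU015791 form a block with r from 0.74 to 0.84, and 6330563C09Rik is negative with every other gene.

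Over all filtered probes, the named genes whose within-group deviations were most like those of AI314604 were Pgd (r = 0.96), Icosl (0.95) and Gpc3 (0.94). Pgd was also among the 3 nearest to AF251705 (0.91), with Aspg (0.92) and a probe to an intergenic transcript (0.94). Nearest to AU015791 were Catsper4 (0.95), Csnk1a1 (0.94) and Stat3 (0.93). Nearest to 4930412O13Rik were Pde7a (0.96), 2310021P13Rik (0.93, Zswim8 in RefSeq) and Zfp143 (0.93), to 6330563C09Rik a pair of unnamed probes and Dos (0.95, Cbarp in RefSeq), and to Mctp1 BC048403 (0.96), an intergenic probe and Suv420h1 (0.92, Kmt5b in RefSeq). These are the highest of 24593 values each, taken over 12 arrays, and their differences from control varied. Pgd differed by 0.10 in each mutant, Pde7a by -1.07 and -0.64, Gpc3 by 0.55 and 0.58 and Aspg by 1.27 and 0.70.

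The loci were examined for neighbours that moved with the genes. Within 100000 bases of the member probes lay 27 other probes of 24 gene names, of which 12 probes of 10 names passed the filter. Of these 12 probes, 2 were called in TrbE10 and 1 in TrbE14, compared with 1.69% and 0.602% of all filtered probes. Both counts include the Enpp6 probe described next, which passed the filter through TrbE10 alone, so they are a description and not a test of the loci.

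The called probe nearest to a member was one of Enpp6, a gene of the ectonucleotide phosphodiesterase family, 2380 bases from the AI314604 probe on the same strand. Its log2 signals were 2.30, 2.63, 2.32 and 2.32 in control, 5.27, 4.30, 5.46 and 5.09 in TrbE10 and 4.65, 3.96, 3.65 and 4.90 in TrbE14 hearts, and it was well above background on 0, 3 and 1 arrays, so that it passed the filter through TrbE10 alone and had 1 measured level outside that group. Every mutant array exceeded every control array. The fitted difference was 2.64 in TrbE10 (limma adjusted p = 0.00152, at least 1.50-fold) and 1.89 in TrbE14 (adjusted p = 0.0161), where 3 of 4 arrays were at background as all controls were, the bound was under 1 and no fold is given. Its within-group r with AI314604 was 0.58. A further Enpp6 probe, 27580 bases from AI314604, was not well above background on any array. Whether the AI314604 EST and Enpp6 come from the same transcript was not tested.

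AF251705 lies in the CD300 cluster, where the nearest measured relative was Cd300ld, 14288 bases away on the same strand. Cd300ld gave log2 signals of 7.99, 7.21, 7.41 and 7.06 in control, 8.68, 8.23, 8.77 and 8.67 in TrbE10 and 8.47, 8.20, 8.04 and 8.24 in TrbE14 hearts. It was higher by 1.17 in TrbE10 (adjusted p = 0.0144) and by 0.82 in TrbE14 (adjusted p = 0.0995), with no overlap in either. Of the other CD300 genes within this window, Cd300a and Cd300e stayed at background on all 12 arrays, and well above it were Cd300c and Cd300lb on 1 TrbE10 array each and Cd300lh on 2 TrbE10 arrays, and Gm11710 (Cd300ld4 in RefSeq) on 1 TrbE14 array.

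At the other loci, the neighbours named here did not pass the threshold. The nearest measured probe of all, to an Ensembl transcript on the opposite strand 321 bases from the second 4930412O13Rik probe, differed by 0.22 (adjusted p = 0.843) and -0.17 (adjusted p = 0.877). Gata3, a zinc-finger transcription factor 28757 bases from the first 4930412O13Rik probe on the opposite strand, differed by 0.23 (adjusted p = 0.894) and 0.19 (adjusted p = 0.912), and both probes of Taf3, a subunit of the general transcription factor TFIID, by at most 0.19. Near AU015791, the bradykinin receptor genes Bdkrb1 and Bdkrb2 had no array well above background, and Atg2b, an autophagy gene, differed by -0.17 and 0.07 (adjusted p = 0.615 and 0.850). Near Mctp1, both probes of Ankrd32 (Slf1 in RefSeq) differed by at most 0.11 in size, and Stox2 near AI314604 by -0.23 and -0.13 (adjusted p = 0.332 and 0.604).

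**Figure D5:**
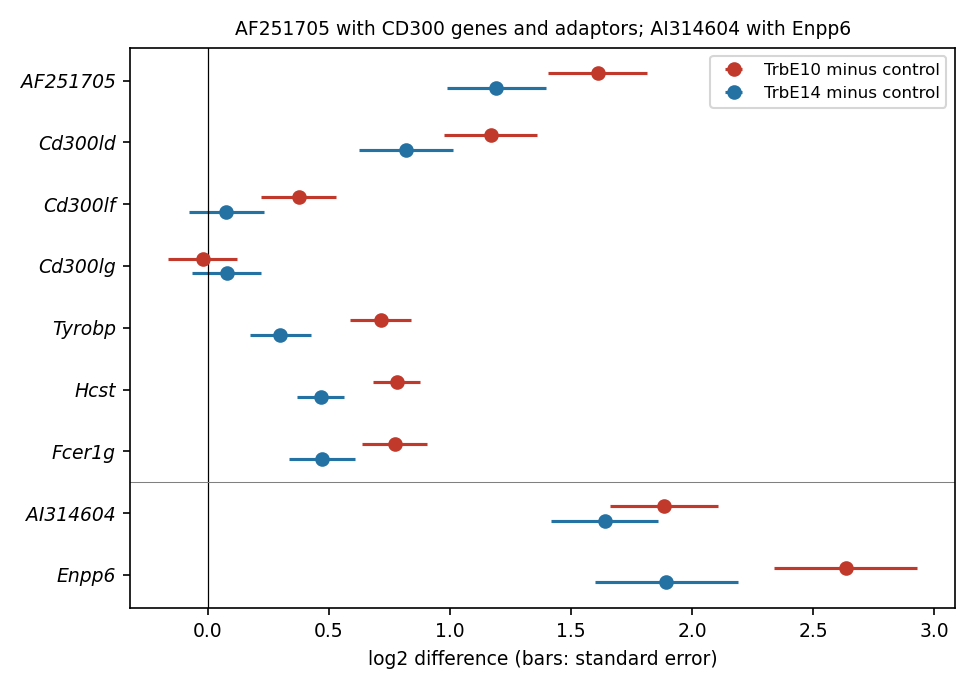
Log2 difference from control (x axis, bars for the standard error) in TrbE10 and TrbE14 for AF251705 with the measured CD300 genes and adaptors, and for AI314604 with the Enpp6 probe 2380 bases away. Cd300ld, Tyrobp, Hcst and Fcer1g lie right of 0 in both mutants with smaller values than AF251705; Cd300lf and Cd300lg lie near 0 in TrbE14.

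Of 11 CD300 family genes and adaptors, 6 were measured besides AF251705. In TrbE10, 4 of 6 rose and 0 fell, while 1.08% of all filtered probes were called higher. The 4 were Cd300ld and the adaptors Hcst, Fcer1g and Tyrobp. In TrbE14, 0 of 6 passed, while 0.468% of all filtered probes were called higher. The medians were 0.74 in TrbE10 and 0.38 in TrbE14, against -0.02 and -0.03 over all filtered probes. The adaptors that pair with activating receptors rose in TrbE10, Hcst by 0.78 (limma adjusted p = 0.00271), Fcer1g by 0.77 (adjusted p = 0.0190) and Tyrobp by 0.71 (adjusted p = 0.0194), and in TrbE14 they differed by 0.47, 0.47 and 0.30 (adjusted p = 0.0642, 0.179 and 0.338). Cd300lf, an inhibitory member, differed by 0.38 and 0.08 and Cd300lg, an endothelial member, by -0.02 and 0.08, and neither passed. Between the mutants 0 of the 6 passed the threshold, as did 0 of all filtered probes, which does not show that the mutants were alike. Within groups, AF251705 had an r of 0.40 with Cd300ld, 0.33 with Hcst, 0.08 with Fcer1g and -0.28 with Tyrobp.

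Some macrophage markers rose in the hearts in which AF251705 was higher. Of 22 measured, 8 rose in TrbE10 and 1 in TrbE14 (over all filtered probes, 1.08% and 0.468%), with medians of 0.61 and 0.39. The others did not pass, among them Mrc1 with 0.19 and -0.06, Lyve1 with -0.18 and 0.03 and Itgam with -0.09 and 0.04. The one in both was Csf1r, the receptor of the macrophage growth factor, higher by 1.14 and 0.92 (adjusted p = 1.12e-04 and 6.07e-04). The summed signal of the list ranged from 22174 to 25381 in control, 32116 to 37240 in TrbE10 and 28260 to 32343 in TrbE14 hearts. None of the 22 was without signal. The sum is of linear signals, so the brightest genes, Itgam and Csf1r, weigh most in it. Csf1r log2 signals were 12.15 to 12.43 in control, 13.26 to 13.48 in TrbE10 and 13.10 to 13.23 in TrbE14 hearts. The part of the macrophage markers in the AF251705 difference was not tested.

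Of 29 C2 domain membrane protein genes, 13 were measured and 10 had no array well above background. The median difference was -0.05 in TrbE10 and 0.03 in TrbE14, against -0.02 and -0.03 over all probes. Of the 13, 1 was called higher in each mutant (1.08% and 0.468% of all filtered probes were). This was Syt5, a synaptotagmin of secretory vesicles, higher by 1.26 (adjusted p = 0.00367) in TrbE10 and by 1.36 (adjusted p = 0.00356) in TrbE14. Syt7 differed by -0.63 and -0.41 and did not pass. Fer1l6 did not pass either, and was well above background on 0 control, 0 TrbE10 and 3 TrbE14 arrays, so no difference is given. Mctp2, the closest relative of Mctp1, was not well above background on any array.

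The other cell-type lists are given by counts beside all 6 genes, and their part in these differences was not tested. For comparison, 1.08% of all filtered probes were called higher in TrbE10 and 0.468% in TrbE14. Of 12 endothelial markers 2 rose in TrbE10 and 1 in TrbE14 (Vwf in both), and of 11 fibroblast markers 1 rose in each (Dcn). Of 6 measured mast cell markers 1 rose in each (Cpa3), and of 5 dendritic and Langerhans cell markers 1 rose in each (Cd207). Cpa3 and Cd207 were well above background on 0 control arrays and passed the filter through the mutant arrays. The other measured mast cell, dendritic and Langerhans cell markers did not pass, and their differences went in both directions. Of 9 atrial genes 2 rose and 1 fell in TrbE10 and 1 rose in TrbE14. Of 5 skeletal muscle genes 1 fell in TrbE10. None of the 5 neutrophil, 7 lymphocyte, 6 conduction system, 5 adipocyte, 4 erythroid and 7 neuron and glia genes measured passed in either mutant (0 of each list). The neuron and glia list stands beside 6330563C09Rik, whose cDNA came from brain, and its medians were -0.10 in TrbE10 and 0.12 in TrbE14.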

How the data were processed

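Gene expression was measured in 12 left ventricles with one-colour Agilent SurePrint G3 arrays, 62976 spots each including 3671 control spots. The authors deposited, per array, the output of Agilent Feature Extraction 10.5 (named in the submitters' processing notes), in which each spot has a background-subtracted intensity (the processed signal), with other flags for spots well above background and surrogate values. The authors also deposited a table of log2 values, quantile normalized and filtered at 75%, with 22114 spots of 19800 probes. Its log base and direction follow from the scanner signals, and its column medians were 8.58 to 8.60.

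The log2 of the processed signal was quantile normalized with limma (version 3.58.1, R version 4.3.3; tables read with the data.table package, 1.17.8), control spots and outlier flags were left out, and spots of a probe were averaged (7 filtered probes had a missing value, none of a member). A probe was kept when well above background on at least 3 arrays of any group, and the 3 groups were fitted together with limma (9 residual, 2.19 prior degrees of freedom), with Benjamini-Hochberg adjustment over 24593 probes. Each adjusted p here is from limma at a threshold of 0.05. The procedure was tested on simulated data. The study's own permutation-based test was not run. Replicates are separate mice, and limma p-values set a difference in group means against the spread between mice within groups, moderated over probes. The 12 arrays limit the precision. Genes were named by the array's gene name, and current symbols, biotypes and no coordinates were taken from RefSeq (GRCm38.p6). Plots were made with matplotlib (3.10.9) and pandas (2.3.3) under Python 3.11.15.

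The members and the 16 gene lists were chosen with earlier results of these data known. The genes named are the members, for each the 3 probes with the most alike within-group deviations, genes within 100000 bases, the CD300 list, the 3 C2 genes with the largest differences and at most 3 genes of each marker list. A clone-named gene has a name ending in Rik or made of 2 or 3 capital letters and 6 digits. The alternatives were 75th percentile scaling, normexp, the authors' values, no filter, a filter on 9 of 12 arrays, signals raised to the detection limit, sex as a covariate, a replicate block, a fit of only the 2 groups compared, and leaving out each array in turn.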

Additional observations from a re-analysis of the deposited data

Results flagged for a closer look

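In TrbE14 hearts, AF251705 had 1 array apart from the others. Replicate 3 gave a log2 signal of 6.62 and the other replicates 7.01 to 7.09, so that the gap to the nearest was 0.831 of the whole range, just above Dixon's critical value at the 95% level for 4 samples. It was 1 of 14 groups of 4 arrays looked at, and chance gives about 1 in 20. Without this array the difference from control was 1.30 instead of 1.19, and the spot was well above background on every array.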

How the results depend on the processing

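The differences of the 6 genes from control were positive under every alternative run (12 of 12 in each, and 4 of 4 with the filter on 9 of 12 arrays, which only AF251705 and AI314604 pass). Of the 12, those called were 12 with 75th percentile scaling and with sex as a covariate, 11 with only the 2 groups compared, 8 with normexp, 8 without a filter, 6 with the authors' values, 6 with signals raised to the detection limit, and from 8 (without control replicate 4) to 12 with 1 array left out. The calls lost when 1 array was left out were those of AU015791 in TrbE10 and of 6330563C09Rik, AF251705 and Mctp1 in TrbE14. The difference between the mutants for 4930412O13Rik turned from -0.18 to 0.00105 with normexp.

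Over all probes, the 416 called in TrbE10 became 197 without a filter and 263 with only the 2 groups compared, and fell to 159 when TrbE10 replicate 3 was left out or rose to 709 when TrbE10 replicate 2 was. The share called higher was 63.9%, 51.9% with 75th percentile scaling and 76.1% without a filter. The 148 called in TrbE14 became 240 with normexp and moved between 83 (control replicate 3 left out) and 190 (TrbE10 replicate 2 left out), with 77.7% higher and 66.2% with normexp. The 0 between the mutants became 1 with 75th percentile scaling, 2 without a filter and 0 to 1 without 1 array. The cause was not tested. With the replicate number as a block, 316, 146 and 1 probes were called and 9 of the 12 differences, without AU015791 in TrbE10 and AF251705 and Mctp1 in TrbE14. Deviations of samples sharing a number correlated at -0.24 to 0.08 between control and mutant arrays, and between the mutants at 0.37, 0.31, -0.01 and 0.48. Not every pair was positive, so the numbers were not taken to pair the samples. Averaging a gene's filtered probes could not be run as an alternative, since each gene had 1. Signal over background limits 4930412O13Rik, 6330563C09Rik, AU015791 and Mctp1 to bounds in control hearts.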
